A study of Rattus norvegicus with 6 samples.

Results

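The genes described here are 8 antioxidant genes of the rat kidney: catalase (Cat), the superoxide dismutases Sod1 and Sod2, the transcription factor gene Nfe2l2, which codes for Nrf2, and 4 genes known as Nrf2 targets, Hmox1, Nqo1, Gclc and Gclm. They were listed by name, with no threshold on their values but with earlier results of these data known, and found by gene ID in a table of 21986 genes. All 8 IDs were in the table on the expected chromosome. RefSeq places the 8 symbols on those chromosomes too, a check that does not by itself prove that an ID and a name belong together. All 8 also had a mean of at least 0.5 FPKM over the 6 libraries, the floor for testing. FPKM is the number of sequenced fragments scaled for the length of the gene and for the mapped fragments of the library, so levels of different genes can be compared.

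The study compared kidney RNA of male Wistar rats in 2 groups of 3 samples, all of wild-type genotype per the labels. In the FSGS group (focal segmental glomerulosclerosis, scarring of parts of the filtering units), the left kidney was removed, and adriamycin, a cytotoxic anthracycline, was injected into the tail vein: 5 mg/kg 7 days after the operation, then 3 mg/kg at day 28. Control rats were given saline injections. The sample titles call all 6 samples untreated, although the treatment field gives the surgery and injections; the same titles name the group of each sample and were used to group them. Since the labels mention no operation on them, nephrectomy and drug cannot be told apart. Age, the time of sampling and whether each library is a separate animal are not given in the sources used here, so the p-values rest on the spread among these samples alone, part of which may be technical.

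Superoxide dismutases turn superoxide into hydrogen peroxide, and catalase splits hydrogen peroxide into water and oxygen. Glutathione, the main small thiol of the cell, is made from glutamate, cysteine and glycine, and its first and rate-limiting step is run by glutamate-cysteine ligase, a dimer of the catalytic subunit Gclc and the modifier subunit Gclm. Nrf2 is a transcription factor that Keap1 marks for degradation in unstressed cells. Under oxidative stress it is stabilised and binds antioxidant response elements of genes such as Hmox1, Nqo1, Gclc and Gclm. Nrf2 is regulated largely at the level of the protein, which RNA-seq does not measure. In the kidney, proximal tubule cells are rich in mitochondria, peroxisomes and glutathione synthesis.

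In FSGS kidneys Gclc, Gclm, Cat, Sod1 and Nqo1 fell, Hmox1 and Nfe2l2 rose, and Sod2 did not pass the test. Among all 14139 genes tested, limma called 44% at adjusted p under 0.05, with 27% higher and 17% lower in FSGS. The values of the groups did not overlap in 7 of the 8 genes and in 55.6% of all genes tested. FSGS was the higher group without overlap in 2 of the 8 and in 34.6% of all genes tested, and the lower group without overlap in 5 of the 8 and in 21% of all genes tested. The median log2 change was -1.41 over the 8 genes and 0.11 over all genes tested. Here and below, a log2 change is the difference between group means of log2(FPKM + 1), unless another scaling or pseudocount is named. It is not the log2 ratio of the mean FPKM values given beside it. In bulk tissue, fewer cells of a type and less RNA per cell cannot be told apart.

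**Figure D1:**
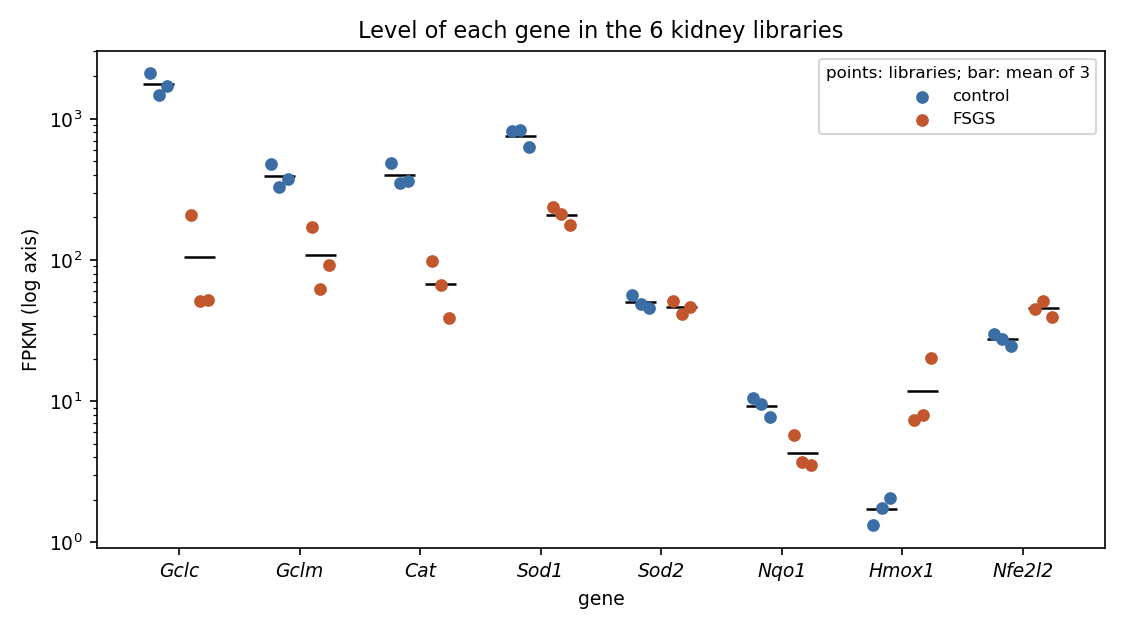
Level of each of the 8 genes in the 6 kidney libraries, in FPKM on a log axis. Blue points are the 3 control and orange points the 3 FSGS libraries, in the order of replicates 1 to 3, and bars are group means. The groups are separate in 7 genes and overlap in Sod2.

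The summed FPKM of the libraries and the mitochondrial share of it moved with the groups. Summed FPKM ran from 614047 to 691777 in controls and from 754892 to 824403 in FSGS. Mitochondrially encoded genes took 51.6% to 62.9% of it in controls and 64.0% to 71.7% in FSGS. An FPKM is a share of its library, so the changes of the 8 genes were also computed under 4 other scalings of the columns. As deposited, limma called 3814 genes higher and 2408 lower. With TPM, in which each column is set to the same sum, the calls were 2012 higher and 3191 lower. The median log2 change of all genes ran from -0.12 with TPM to 0.22 after rescaling without the mitochondrial and the 20 most abundant nuclear genes. Defining markers of kidney cell types and of blood cells were not analysed here, because the table pairs no IDs with names, so the tissue label was not checked against them and their part in the results below was not tested.

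Gclc showed the largest change of the 8 genes. The catalytic subunit of glutamate-cysteine ligase (ENSRNOG00000006302, chromosome 8) stood at 2099, 1482 and 1709 FPKM in controls 1, 2 and 3 and at 209, 51.0 and 52.3 FPKM in FSGS 1, 2 and 3. The lowest control was 7.09 times the highest FSGS library. The mean fell from 1763 ± 312 to 104 ± 90.8 FPKM (SD, n = 3 each), a log2 change of -4.39 ± 0.48 (SE; limma adjusted p = 0.000203, lower in 3 of 3 FSGS libraries). In the order of all genes tested from the most negative log2 change upward it was number 15. In controls it was the most abundant of the 8 genes and number 6 by mean level among 21949 nuclear genes in the table. In FSGS it was number 147, 851 and 704 in replicates 1, 2 and 3.

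The size of the Gclc change depended on FSGS 1, whose level was 4.04 times the mean of FSGS 2 and 3. Without it the FSGS mean was 51.7 FPKM and the log2 change -5.05 ± 0.18 (SE; limma adjusted p = 2.02e-06).

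Gclm, the modifier subunit (ENSRNOG00000013409, chromosome 2), fell less. Its levels were 480, 328 and 375 FPKM in controls and 171, 62.2 and 91.7 FPKM in FSGS. All FSGS values lay below all controls, and the lowest control was 1.92 times the highest FSGS library. The means were 394 ± 77.5 and 108 ± 56.3 FPKM (SD, n = 3 each), a log2 change of -1.96 ± 0.33 (SE; limma adjusted p = 0.00159).

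The ratio of the subunits' RNA did not overlap between the groups. Gclc was 4.38, 4.52 and 4.56 times Gclm in controls 1, 2 and 3, and 1.22, 0.82 and 0.57 times in FSGS 1, 2 and 3. Such a ratio within a library does not change when its column is multiplied by 1 factor; quantile normalization, which is no such factor, can change it. The controls lay within a narrow range and the FSGS libraries all below it, with more Gclc than Gclm RNA in all 3 controls and in FSGS 1, and less in FSGS 2 and 3. The log2 ratio was 2.16 in controls and -0.27 in FSGS, a 5.40-fold difference (two-sided exact permutation p = 0.1, n = 3 each). That p is the smallest possible with 3 against 3. Of 4 ratios computed, all had this p, and 0.1 after Benjamini-Hochberg adjustment.

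**Figure D2:**
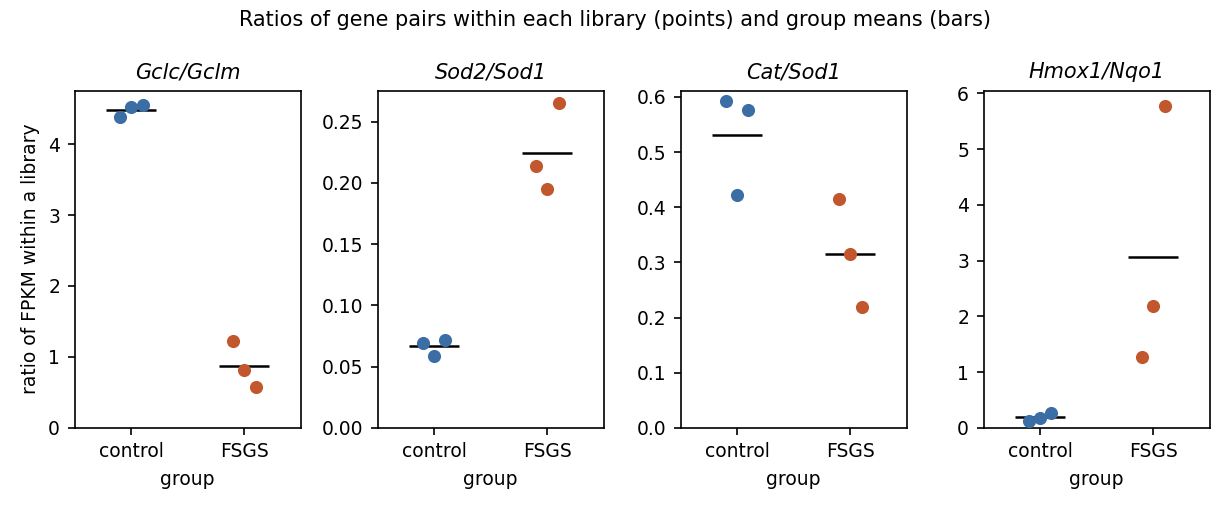
Ratio of the FPKM of 2 genes within each library, for 4 pairs; points are the 3 control (blue) and 3 FSGS (orange) libraries, in the order of replicates 1 to 3, and bars are group means, on linear axes that start at 0. Gclc/Gclm lies between 4.38 and 4.56 in controls and between 0.57 and 1.22 in FSGS. The groups are separate in all 4 pairs, in Cat/Sod1 only narrowly (0.422 in control 2, 0.414 in FSGS 1). With quantile normalization the Cat/Sod1 ranges overlap. How often other pairs of genes separate was not computed, and 55.6% of all single genes tested do.

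Sequences upstream of the genes are shown because antioxidant response elements are where Nrf2 binds, and because Gclm, which fell, and Sod2, which gave no call, hold the same core letters. RefSeq promoters (build GRCr8, from 250 bases before to 50 after the start site) matched 7 of the 8 genes by symbol, all but Hmox1. They were searched on both strands for the element's core, TGACNNNGC, which reads GCNNNGTCA on the other strand. Gclm, Sod2 and Nfe2l2 held a match, 3 of 7, against 12.1% of all 33465 promoters of this length. Those promoters were not matched to the 7 genes in GC content or expression. With only 7 genes, the shares cannot show an excess. In Gclm it began 172 bases before the start site, in Sod2 35 bases before it, and in Nfe2l2 at base 39 after it. A match is a description of letters and not a binding site, and the search covers this window alone, so Cat, Sod1, Nqo1 and Gclc may hold such letters elsewhere. Below are the 250 bases before the start site of Gclm (chr2:213031885-213032134, plus strand) and Sod2 (chr1:50050169-50050418, minus strand), with the match in capitals, and of Cat (chr3:110329527-110329776, minus strand), which held none; all are written 5′ to 3′ along the gene.
Gclm: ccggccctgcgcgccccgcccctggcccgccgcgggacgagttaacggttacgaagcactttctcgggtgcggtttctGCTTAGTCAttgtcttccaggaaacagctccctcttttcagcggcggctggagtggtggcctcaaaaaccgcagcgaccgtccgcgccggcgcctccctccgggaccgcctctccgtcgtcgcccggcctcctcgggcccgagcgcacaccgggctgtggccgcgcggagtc
Sod2: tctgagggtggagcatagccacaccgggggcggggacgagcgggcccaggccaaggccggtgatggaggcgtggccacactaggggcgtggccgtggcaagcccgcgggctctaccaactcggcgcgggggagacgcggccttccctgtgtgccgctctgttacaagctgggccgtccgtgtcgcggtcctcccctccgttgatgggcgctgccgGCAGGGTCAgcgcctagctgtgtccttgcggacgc
Cat: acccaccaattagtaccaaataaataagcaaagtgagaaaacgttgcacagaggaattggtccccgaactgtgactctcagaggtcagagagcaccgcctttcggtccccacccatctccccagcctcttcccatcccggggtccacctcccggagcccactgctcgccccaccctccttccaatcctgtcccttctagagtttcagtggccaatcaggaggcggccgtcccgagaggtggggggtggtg
Of the 7 genes searched, those with the letters fell (Gclm), rose (Nfe2l2) or gave no call (Sod2) in FSGS. Those without them, Cat, Sod1, Nqo1 and Gclc, fell. Whether the letters have a part in any of these changes was not tested.

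Catalase and the cytosolic dismutase, which handle hydrogen peroxide and superoxide, both fell. Cat (ENSRNOG00000008364, chromosome 3) was at 483, 349 and 363 FPKM in controls and at 98.7, 66.9 and 38.6 FPKM in FSGS. FSGS 1 was the highest FSGS library, and the lowest control was still 3.54 times its level. The mean fell from 398 ± 73.3 to 68.1 ± 30.1 FPKM (SD, n = 3 each), a log2 change of -2.61 ± 0.30 (SE; limma adjusted p = 0.000276).

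Sod1, the copper-zinc dismutase of the cytosol (ENSRNOG00000002115, chromosome 11), was at 814, 828 and 631 FPKM in controls and at 238, 213 and 176 FPKM in FSGS. The FSGS libraries were close to each other, the highest 1.35 times the lowest, and all lay far below the controls. The mean fell from 758 ± 110 to 209 ± 31.1 FPKM (SD, n = 3 each), a log2 change of -1.85 ± 0.17 (SE; limma adjusted p = 0.000102). It ranked 22 among nuclear genes by mean level in controls and 127 in FSGS.

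Sod2, the manganese dismutase of mitochondria (ENSRNOG00000019048, chromosome 1), gave no call. Its levels were 56.4, 48.4 and 45.4 FPKM in controls and 50.9, 41.5 and 46.8 FPKM in FSGS, and the groups overlapped. The means were 50.1 ± 5.68 and 46.4 ± 4.68 FPKM (SD, n = 3 each). The log2 change was -0.11 ± 0.14 (SE; limma adjusted p = 0.564), with a 95% interval of -0.43 to 0.21. It was 0.09 with quantile normalization, 0.03 after rescaling without the mitochondrial and most abundant nuclear genes and -0.39 with TPM, so its direction was set by the scaling. It ranked 984 among nuclear genes by mean level in controls and 929 in FSGS.

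Within a library, Sod2 RNA was a larger part of Sod1 RNA in FSGS. Controls 1, 2 and 3 had Sod2/Sod1 ratios of FPKM of 0.069, 0.059 and 0.072, and FSGS 1, 2 and 3 had 0.214, 0.195 and 0.265. All FSGS ratios were above all control ratios, a 3.36-fold difference between the mean log2 ratios (n = 3 each, exact permutation test, two-sided p = 0.1). This separation repeats the fall of Sod1 beside a nearly level Sod2. Cat was lower relative to Sod1. The Cat/Sod1 ratio was 0.593, 0.422 and 0.576 in controls and 0.414, 0.314 and 0.219 in FSGS, a 1.72-fold difference (two-sided exact permutation p = 0.1, n = 3 each). Control 2 and FSGS 1 were nearly level in that ratio, and with quantile normalization their ranges overlapped (exact permutation test, two-sided p = 0.2).

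The Nrf2 target genes outside glutathione synthesis moved in opposite directions. Hmox1, heme oxygenase 1, is the inducible enzyme that breaks heme down to biliverdin, iron and carbon monoxide (ENSRNOG00000014117, chromosome 19). It was at 1.32, 1.74 and 2.06 FPKM in controls and at 7.34, 8.01 and 20.2 FPKM in FSGS. The lowest FSGS library was 3.56 times the highest control, and FSGS 3 stood far above the other two. The mean rose from 1.71 ± 0.37 to 11.8 ± 7.23 FPKM (SD, n = 3 each), a log2 change of 2.12 ± 0.32 (SE; limma adjusted p = 0.00102). Adding 1 to each FPKM before taking logs makes the change of so low a gene look smaller. Without FSGS 3 the FSGS mean was 7.68 FPKM and the log2 change 1.69 ± 0.17 (SE; limma adjusted p = 0.000238). The log2 change was 2.59 with a pseudocount of 0.1 and 1.25 with a pseudocount of 5.

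Nqo1, a quinone reductase of the cytosol (ENSRNOG00000012772, chromosome 19), was at 10.6, 9.50 and 7.74 FPKM in controls and at 5.79, 3.68 and 3.50 FPKM in FSGS. The groups did not overlap, but the lowest control was only 1.34 times the highest FSGS library. The mean fell from 9.27 ± 1.42 to 4.32 ± 1.27 FPKM (SD, n = 3 each), a log2 change of -0.96 ± 0.19 (SE; limma adjusted p = 0.00367). Hmox1 RNA was 0.125, 0.183 and 0.266 times Nqo1 RNA in controls, and 1.27, 2.18 and 5.77 times in FSGS. The order of the pair thus turned round in every FSGS library, a 13.8-fold difference between mean log2 ratios (two-sided exact permutation p = 0.1, n = 3 each). Since Hmox1 was higher and Nqo1 lower in FSGS without overlap, their ratio had to separate the groups. Its p adds nothing to the results of the single genes. Without FSGS 3 the difference of the log2 ratios was 3.18 in place of 3.78.

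Nfe2l2, the gene of Nrf2 itself (ENSRNOG00000001548, chromosome 3), rose modestly. Its levels were 30.1, 27.7 and 24.4 FPKM in controls and 45.2, 51.4 and 39.3 FPKM in FSGS. The lowest FSGS library was 1.31 times the highest control. The mean rose from 27.4 ± 2.84 to 45.3 ± 6.02 FPKM (SD, n = 3 each), a log2 change of 0.70 ± 0.15 (SE; limma adjusted p = 0.00486). After rescaling to TPM the log2 change was 0.43 and did not pass (limma adjusted p = 0.125). Between the group means, Nfe2l2 RNA and that of Gclc, Gclm and Nqo1 thus moved in opposite directions, while Hmox1 rose as Nfe2l2 did. Within the groups Hmox1 and Nfe2l2 did not run together. FSGS 3 had the highest Hmox1 (20.2 FPKM) and the lowest Nfe2l2 (39.3 FPKM) of its group. Control 1 had the lowest Hmox1 (1.32 FPKM) and the highest Nfe2l2 (30.1 FPKM) of the controls.

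**Figure D3:**
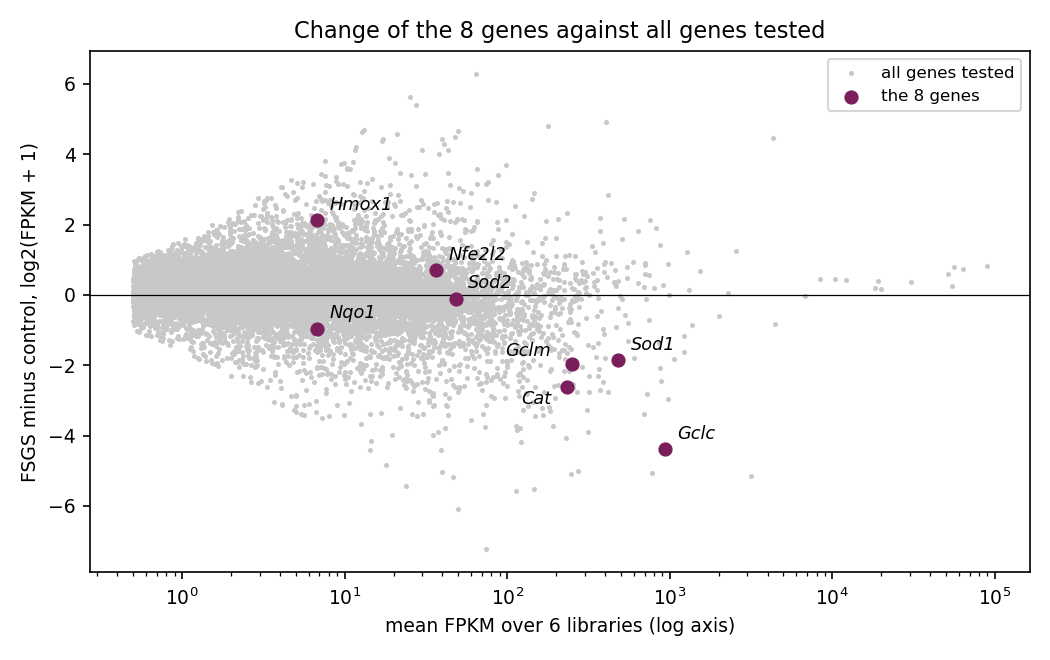
Log2 change, FSGS minus control on the log2(FPKM + 1) scale, against the mean FPKM over the 6 libraries on a log axis, for all 14139 genes tested (grey) and the 8 genes (purple). Gclc lies at the lower edge of the genes at its level with a change of -4.39, while Sod2 lies near 0.

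The 4 most abundant of the 8 genes all fell. Gclc, Sod1, Cat and Gclm are 4 of the 427 nuclear genes with a mean of at least 100 FPKM over the 6 libraries. This floor takes both groups together, so a gene can pass it through the group where it is high. Cat passed through its controls, with means of 398 FPKM there and 68.1 FPKM in FSGS. Gclc and Gclm lay under 100 FPKM in FSGS 2 and 3. Among the less abundant of the 8, direction did not follow level: Nqo1 fell, Hmox1 and Nfe2l2 rose and Sod2 gave no call. In the class of at least 100 FPKM as a whole limma called 200 genes lower (46.8%) and 93 higher, and the median log2 change was -0.36. A fall of an abundant gene was thus common in these libraries, and 6 genes of the class had a more negative log2 change than Gclc. The 8 genes together made up 1.34%, 1.06% and 1.23% of the summed FPKM of nuclear genes in controls 1, 2 and 3. In FSGS 1, 2 and 3 they made up 0.304%, 0.197% and 0.201%. Gclc alone made up 0.706%, 0.512% and 0.666% in controls and 0.077%, 0.020% and 0.022% in FSGS. Such shares are of FPKM, which is already divided by gene length, and are not shares of reads.

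The order of the genes by level changed too. In controls it ran Gclc, Sod1, Cat, Gclm, Sod2, Nfe2l2, Nqo1, Hmox1, and of neighbours in that order only Cat and Gclm overlapped. In FSGS it ran Sod1, Gclm, Gclc, Cat, Sod2, Nfe2l2, Hmox1, Nqo1. There the ranges of Gclm and Gclc, of Gclc and Cat, of Cat and Sod2, and of Sod2 and Nfe2l2 overlapped, so the middle of the FSGS order is not resolved. Sod1 stood above Gclm, Nfe2l2 above Hmox1, and Hmox1 above Nqo1 in all 3 FSGS libraries.

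Among the FSGS libraries, FSGS 1 had the highest level of the 3 FSGS libraries in all 5 genes that fell, as it did in 68.7% of the 2408 genes called lower. Its level relative to the mean of FSGS 2 and 3 was 1.22-fold in Sod1, 1.61-fold in Nqo1, 1.87-fold in Cat, 2.22-fold in Gclm and 4.04-fold in Gclc. FSGS 1 also had the lowest mitochondrial share of the FSGS libraries, 64.0%; the part of that share in these differences was not tested. Between FSGS 2 and 3, Cat and Sod1 were lower in FSGS 3, and Gclm was lower in FSGS 2. Gclc (51.0 and 52.3 FPKM) and Nqo1 (3.68 and 3.50 FPKM) were nearly level in FSGS 2 and 3. Control 1 was the highest control in 4 of the 5, and in 59.1% of the genes called lower. It likewise had the lowest mitochondrial share of the controls, 51.6%, and the part of that share was not tested either. Of the rising genes, Hmox1 was highest in FSGS 3 and Nfe2l2 in FSGS 2.

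Likeness of pattern was described by Pearson's r of log2(FPKM + 1) over the 6 libraries, which share their 2 groups, so that r mostly repeats the group difference. Cat and Gclc were each other's nearest gene (r = 0.983), Gclm and Nqo1 were nearest to Gclc (0.982 and 0.975), and Sod1 was nearest to Cat (0.979). Nfe2l2 and Hmox1 were nearest to each other at r = 0.745, with their highest levels in different FSGS libraries. Sod2 was nearest to Gclm at r = 0.678.

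The scaling of the columns left most of these calls in place. Cat, Sod1, Gclc, Gclm, Nqo1 and Hmox1 kept their direction and their call under each of the 4 other scalings. Gclc ranged from -4.68 with TPM to -4.17 with quantile normalization on the log2 scale, and Nqo1 from -1.26 with TPM to -0.85 after rescaling without the mitochondrial and most abundant nuclear genes.

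**Figure D4:**
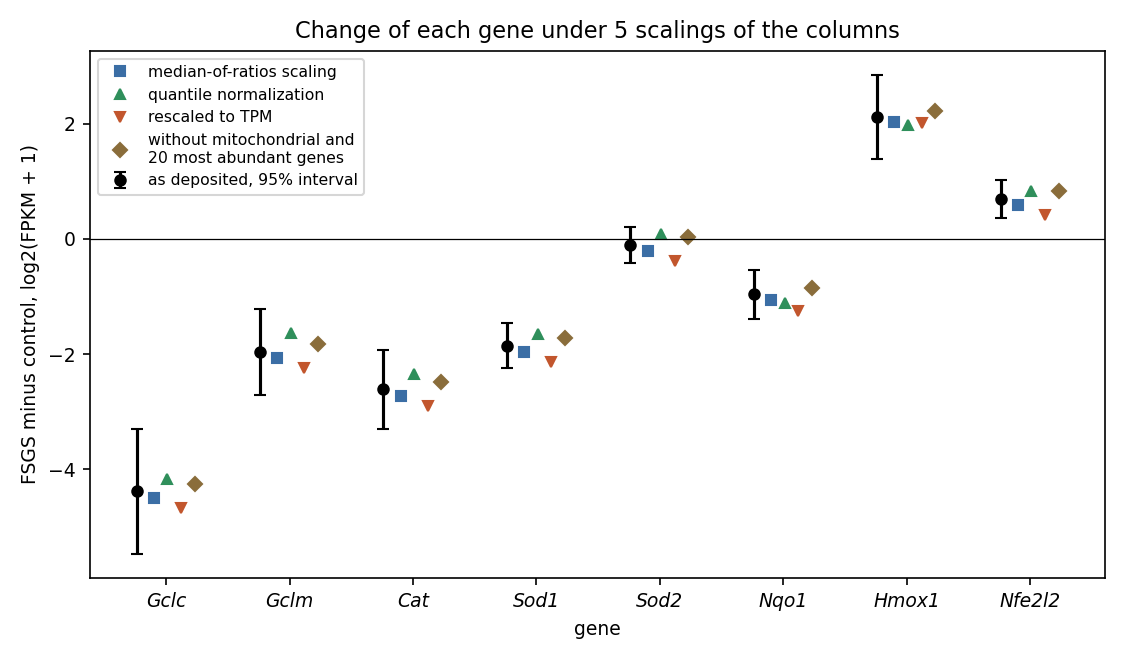
Log2 change of each gene, FSGS minus control on the log2(FPKM + 1) scale, as deposited (black, with the 95% interval from limma) and under 4 other scalings of the columns (coloured symbols). The changes of 7 genes stay on 1 side of 0, while those of Sod2 lie on both sides, from -0.39 to 0.09.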

How the data were processed

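Poly(A) RNA of 6 kidney samples was made into strand-marked paired-end libraries, per the labels' protocols. Tools listed by the submitters' processing notes, with no role given, are StringTie 2.1.6, HISAT2 2.2.1, cutadapt 1.9, edgeR and DESeq2. Not given in the sources used here are genome build, annotation and the treatment of reads shared by similar genes. The authors deposited FPKM per gene, with at most 2 decimals. Columns were matched to samples by the short names in the description field.

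FPKM carries no counts. Low values were checked for the steps that whole reads would leave. The check took genes absent from at least 2 libraries and at 0.3 FPKM or more in both libraries compared. These were 16 to 136 genes per pair of libraries. At most 12.8% of them fell in any log2 window of 0.05 between 2 libraries, so no reads were recovered and depth is unknown. Genes with a mean of at least 0.5 FPKM were tested (14139 of 21986) as log2(FPKM + 1) with limma 3.58.1 in R 4.3.3, group alone, with a mean-variance trend and Benjamini-Hochberg adjustment over all genes tested. Ratios of genes within a library were tested by exact permutation, two-sided. The limma fit, and not the permutation test, was tried on simulated data. Noise there was independent between genes, few genes changed and no library shifted as a whole. The simulation therefore does not match these libraries in full. Figures used matplotlib 3.10.9.

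All 8 genes are named whatever their values. The genes and lists were chosen with earlier results of these data known. A pathway list and cell type markers fixed by symbol were not analysed here, because 0 of the 47357 rows of the RefSeq gene table (GRCr8) carry an Ensembl ID. Results were recomputed with 2 other pseudocounts, 2 filters, 4 scalings and 2 options of limma, with a replicate block, and without each library in turn.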

Additional observations from a re-analysis of the deposited data

How the results depend on the processing

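Each gene was refitted under 17 alternatives, all planned. Cat, Sod1, Gclc, Gclm, Nqo1 and Hmox1 kept their direction and call in all 17, with limma adjusted p of at most 0.0172. Nfe2l2 kept them in 16; with TPM its log2 change was 0.43 (limma adjusted p = 0.125), so 1 of the 8 genes was called higher there in place of 2. Sod2 was called in none, and its log2 change turned to 0.087 with quantile normalization (limma adjusted p = 0.56) and 0.026 after rescaling without the mitochondrial and 20 most abundant nuclear genes (0.846). Over all genes, 2068 were called higher and 1604 lower at a mean of at least 5 FPKM, where fewer were tested, and 2012 higher with TPM. With quantile normalization the log2 Hmox1/Nqo1 ratio differed by 3.09 in place of 3.78; those values carry the pseudocount. Leaving out single libraries, the log2 ratios differed by -2.71 to -2.16 (Gclc/Gclm), 1.62 to 1.84 (Sod2/Sod1), -0.999 to -0.54 (Cat/Sod1) and 3.18 to 4.28 (Hmox1/Nqo1), with no test able to pass. Same-numbered libraries deviated together at r of 0.132, 0.0319 and 0.0235, so numbers were not taken as pairs. Even so, summed FPKM and its mitochondrial share rose from replicate 1 to 3 in both groups. That share was 51.6%, 55.0% and 62.9% in controls and 64.0%, 68.4% and 71.7% in FSGS. What lies behind this shared order was not tested. With the replicate block 4162 genes were called higher and 2738 lower, and no call among the 8 changed. The SE of each of the 8 was smaller with the block, in Cat 0.199 in place of 0.303. Not every library correlated best with its own number. Causes other than those stated were not tested. Depth, and so its limit on a gene as low as Hmox1 in controls, is unknown.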
